A study of Homo sapiens with 15 samples.

Results

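The 62 genes described here are the heat shock proteins and DNAJ co-chaperones of U87MG cells, an established human glioblastoma line. They were chosen by symbol, as HSPA, HSPB, HSPD, HSPE, HSPH or HSP90 genes and as DNAJA, DNAJB or DNAJC genes, with a mean of at least 5 counts over 15 libraries. They are 62 of the 25737 entries of the table and of the 13665 entries at or above that mean. The rule matched 84 entries with 72 distinct symbols, and the 22 entries below the limit had means of at most 4.07 counts, 14 of them with 0 in every library, most of these further entries of HSPA1A, HSPA1B and HSPA1L. The 10 symbols with no entry above it were HSPA6, HSPA7, HSPA12B, HSPB7, HSPB9, DNAJA4, DNAJB3, DNAJB7, DNAJB8 and DNAJB13. The members are 3 HSP90, 10 HSP70, 3 HSP110, 2 chaperonin (HSP60 and HSP10) and 6 small heat shock protein genes, with 3 DNAJA, 9 DNAJB and 26 DNAJC genes. The study compared 5 groups of 3 libraries. All were U87MG cells taken 24 h after lentivirus, carrying GFP as the control or an overexpressed ID gene (ID1, ID2, ID3 or ID4), as labelled. ID proteins inhibit helix-loop-helix transcription factors. The labels do not say whether libraries of 1 group came from separate cultures, so p-values measure the spread between these libraries, which may be technical. All groups come from a single cell line, and in bulk RNA fewer cells of a kind and less RNA per cell cannot be told apart.

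Heat shock proteins are molecular chaperones. HSP70 proteins bind exposed hydrophobic stretches of unfolded proteins in an ATP cycle that DNAJ (HSP40) proteins start and that nucleotide exchange factors end, HSP90 completes the folding of kinases and receptors, and small heat shock proteins hold unfolding proteins in soluble form. The cytosolic set is induced by heat shock factor HSF1, the endoplasmic reticulum (ER) set by the unfolded protein response, and glioblastoma cells are known to express many of these chaperones.

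Levels are given as CPM, counts per 1000000 counts after scaling between libraries. The libraries held 11089044 to 15148979 counts, so that 3 counts equalled 0.198 to 0.271 CPM, and such floors cover counting error only. Reads come from the 3′ end of transcripts, and levels of different genes are not ranked. The ID4 gene had 2479 to 3110 counts in the libraries labelled ID4 and 0 to 2 in GFP, and ID3 had 298 to 322 CPM in its own libraries against 217 to 229 in GFP. The ID3 gene was also higher in the libraries labelled ID2, at 270 to 322 CPM (0.39 on the log2 scale). In contrast, ID1 was at 244 to 250 CPM in the libraries labelled ID1 against 339.8 to 355 in GFP, and ID2 at 44.1 to 47.3 in those labelled ID2 against 84.2 to 88.2, both below the control. The ID2 gene was lower in all 4 ID groups (-1.34, -0.92, -0.90 and -1.26 on the log2 scale), and the ID1 gene was lower in ID4 too (-0.30). Groups are named by their labels throughout. Of 9 astrocyte or glioma markers, 5 were tested. GFAP, the defining astrocyte marker, had 0 to 4 counts in a library and AQP4 had 0 everywhere, while vimentin (VIM) stood at 3527 to 4808 CPM. VIM was higher in ID2 (0.29 on the log2 scale), SLC1A3 in ID1, ID2 and ID3 (0.27, 0.67 and 0.71) and OLIG2 in ID1 (1.84), while NES was lower in ID1 and ID3 (-0.41 and -0.31) and CD44 in ID2 (-0.21). CDKN2A and CDKN2B, which are deleted in U87MG, had 0 counts in every library. Of the markers of other cell types, 5 of 15 were tested. SNAP25 (neuron) was higher in ID1, ID2 and ID3, with 6.19 to 9.74 CPM in GFP and 13.1 to 32.7 in these groups, but SYT1 (neuron) was lower in ID1 at -0.70 (adjusted p = 0.0332) and not called in the others. EPCAM (epithelial) was called in none. CD68 (immune) was higher in ID2 and ID4, with 49.7 to 55.97 against 55.7 to 74.1, and MBP (oligodendrocyte) was lower in all 4, with 4.41 to 5.19 against 0.611 to 1.24 in ID1 to ID3 and 2.005, 0.630 and 0.909 in ID4, while RBFOX3, MOG, VWF and CDH5 had 0 to 2 counts. Their part in the results was not tested.

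The start sites of these genes carry sequence elements through which chaperones are known to be induced. Windows of 250 bases before to 50 after each start (RefSeq, GRCh38.p14) were given for 56 of the 62 members, in 73 windows. DNAJC1, DNAJC24, DNAJC22, HSPA14, HSPB2 and HSPB11 had no window. The heat shock element is bound by HSF1 and is built from alternating units of GAA and TTC. Its form with 3 units, GAANNTTCNNGAA searched on both strands, occurred in 6 of 73 member windows (8.22%) and in 172 of all 35116 windows (0.490%). The forms with 2 units, both contained in the longer form, were more common. GAANNTTC was found in 20.5% of member windows and 6.77% of all windows, and TTCNNGAA in 16.4% and 7.74%. The 6 members with 3 units were HSP90AA1, HSP90AB1, HSPA8, HSPD1, DNAJA1 and DNAJB6. The match in DNAJA1 does not lie within the 250 bases before the start and is not printed. The others are shown, with up to 20 bases on each side. Of the 6 members, 5 were called in at least 1 comparison and HSPA8 in none, beside 52.1% of all entries called in none. DNAJB6 was called higher and HSP90AA1, HSP90AB1, HSPD1 and DNAJA1 lower, and a link to the element was not tested. Capitals mark the matches, and the strand is that of the gene. They lie at chr14:102087100-102087152 (minus strand, HSP90AA1), chr6:44247758-44247863 (plus strand, HSP90AB1), chr2:197500048-197500090 (minus strand, HSPD1), chr7:157336853-157336905 (plus strand, DNAJB6) and chr11:123062159-123062386 (minus strand, HSPA8) of GRCh38.p14.
HSP90AA1: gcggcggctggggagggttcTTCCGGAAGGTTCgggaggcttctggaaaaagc
HSP90AB1: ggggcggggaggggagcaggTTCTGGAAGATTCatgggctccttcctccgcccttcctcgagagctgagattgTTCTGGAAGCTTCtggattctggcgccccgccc
HSPD1: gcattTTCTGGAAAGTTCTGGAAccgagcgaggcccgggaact
DNAJB6: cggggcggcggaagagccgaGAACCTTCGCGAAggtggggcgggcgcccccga
HSPA8: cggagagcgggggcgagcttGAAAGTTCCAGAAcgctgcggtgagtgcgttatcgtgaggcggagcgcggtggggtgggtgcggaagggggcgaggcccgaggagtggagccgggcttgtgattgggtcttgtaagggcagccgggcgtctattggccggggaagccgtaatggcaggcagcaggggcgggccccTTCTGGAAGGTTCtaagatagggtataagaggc

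The ER stress response element, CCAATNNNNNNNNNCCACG on either strand, occurred in 2 of 73 member windows (2.74%) and in 27 of all 35116 (0.0769%). The 2 members were HSPA5 and HSP90B1, the HSP70 and HSP90 proteins of the ER, and the stretches are shown because HSP90B1 was called in all 4 comparisons and HSPA5 in none. They lie at chr12:103930196-103930359 (plus strand, HSP90B1) and chr9:125241371-125241429 (minus strand, HSPA5) of GRCh38.p14, with the matches in capitals. A match describes letters in a window and does not show binding.
HSP90B1: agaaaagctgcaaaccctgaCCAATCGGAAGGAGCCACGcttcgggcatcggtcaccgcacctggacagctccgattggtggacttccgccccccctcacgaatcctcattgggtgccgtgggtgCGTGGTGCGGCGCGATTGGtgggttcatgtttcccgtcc
HSPA5: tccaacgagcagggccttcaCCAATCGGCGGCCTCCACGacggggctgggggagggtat

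A member was called where the adjusted p of edgeR's quasi-likelihood test, corrected over all 13665 entries, was under 0.05. Of the 62 members, 33 were called in at least 1 comparison with GFP and 29 (46.8%) in none, beside 52.1% of all entries called in none. In the ID1 libraries 11 members were called (21.6% of all entries), 9 higher (11.8%) and 2 lower (9.81%). In the ID2 libraries 21 were called (33.8%), 13 higher (17.5%) and 8 lower (16.3%). In the ID3 libraries 20 were called (27.4%), 9 higher (14.5%) and 11 lower (13%). In the ID4 libraries 11 were called (20.6%), 8 higher (11.4%) and 3 lower (9.18%). As shares of the 62 members the totals were 17.7%, 33.9%, 32.3% and 17.7% in ID1 to ID4. The lower calls in ID1 and ID4 were 3.23% and 4.84% of the members. The split of higher and lower calls moved with single libraries. It was 5 and 2 in ID1 without ID1 replicate 2, 12 and 13 in ID2 without GFP replicate 1, and 9 and 7 in ID3 without GFP replicate 2. In ID4 it was 3 and 4 without GFP replicate 1, 5 and 2 without GFP replicate 2, and 4 and 2 without ID4 replicate 1 or 2. The members' median log2 fold changes were 0.09, -0.03, 0.05 and 0.03 in ID1 to ID4, beside 0.00, -0.01, 0.00 and 0.00 over all entries. No member was called higher in one comparison and lower in another. The 4 comparisons share the GFP libraries, so a member's values in them are not independent.

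**Figure D1:**
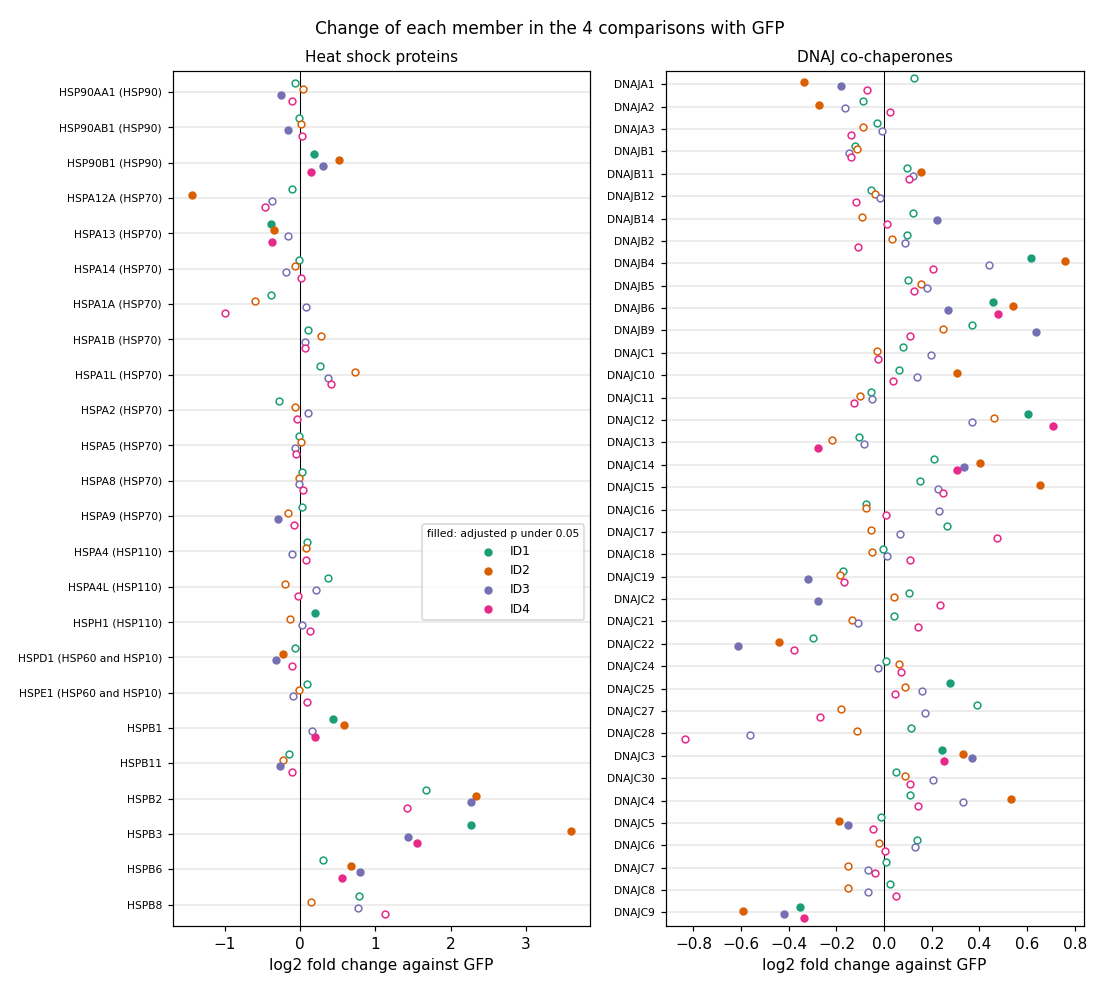
Log2 fold change of each of the 62 members against GFP in the ID1, ID2, ID3 and ID4 libraries, with filled points for adjusted p under 0.05. Most points lie near 0, HSPB3 and HSPB2 lie far to the right, and DNAJB6 is filled to the right in all 4 groups while DNAJC9 is filled to the left.

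HSP90B1, DNAJB6, DNAJC3 and HSPB3 were higher in all 4 comparisons, 4 members or 6.45% (beside 5.66% of all entries). DNAJC9 was lower in all 4, 1 member or 1.61% (beside 4.16%). HSPB1, HSPB6, HSPA13 and DNAJC14 were called in 3. Most changes were small, and 3 members (HSPB3, HSPB2 and HSPA12A) were called with a change over 2-fold in any comparison. All 3 had few counts (means of 22.8, 5.13 and 16.5), and the share of all entries called over 2-fold was not counted. HSPB2 passed the limit of 5 counts only through the groups where it was high, as described with its counts. Chromosomes also shifted as a whole. On the log2 scale the median of chromosome 12 was 0.15 to 0.19 above GFP in the 4 ID groups, that of chromosome 15 0.25 to 0.37 above it, and that of chromosome 10 stood at -0.18 to -0.09. The medians of chromosomes 4, 8 and 9 were more than 0.1 below GFP in ID2 (-0.14, -0.13 and -0.14), and that of chromosome 4 in ID4 (-0.11). Values relative to these medians are given for the genes of these chromosomes that are described in detail.

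**Figure D2:**
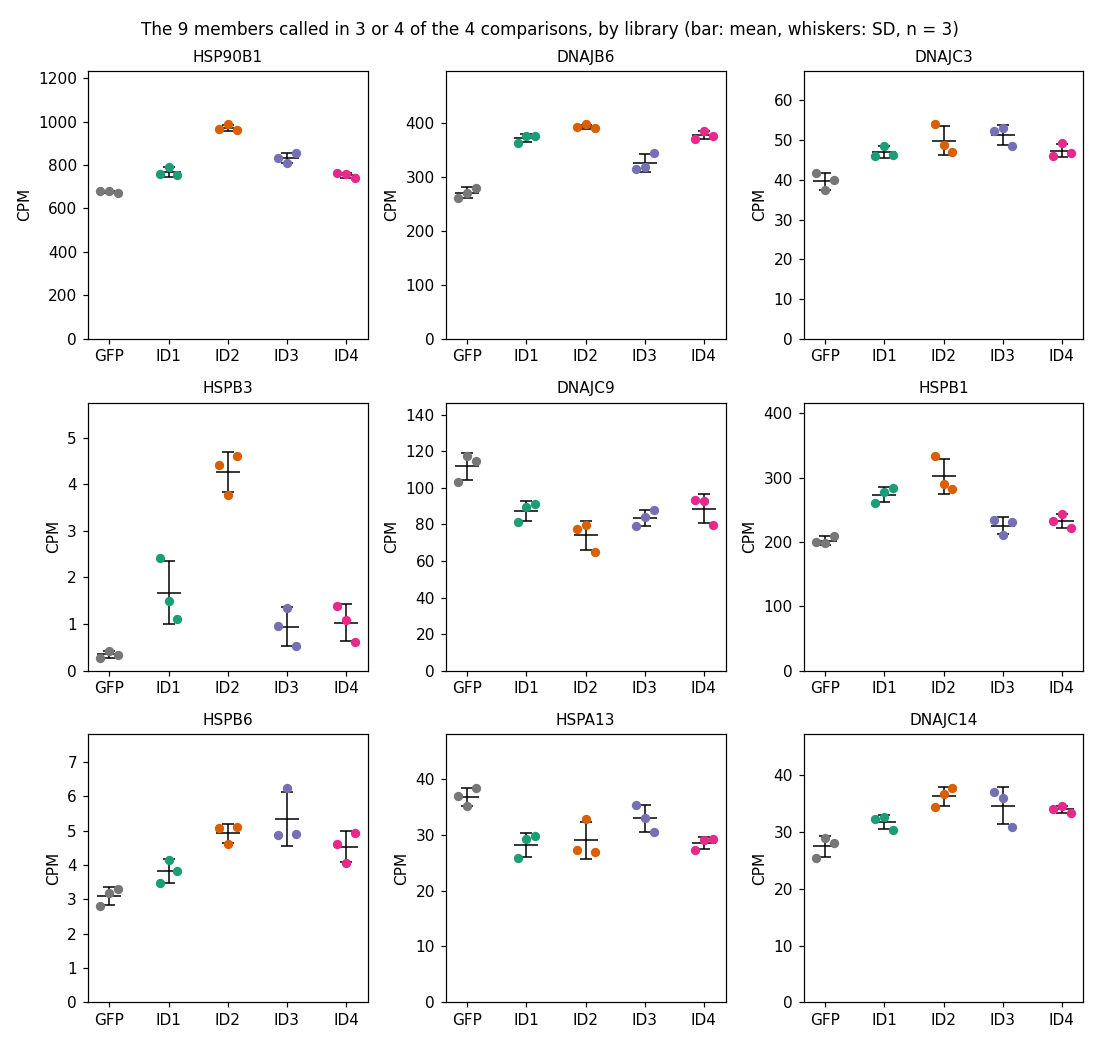
CPM in each library of the 9 members called in 3 or 4 comparisons, with the mean and SD of 3 libraries per group. GFP has the lowest mean for HSP90B1, DNAJB6, DNAJC3, HSPB3, HSPB1, HSPB6 and DNAJC14 and the highest for DNAJC9 and HSPA13.

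Among the HSP90 genes, the ER form was higher in every ID group, while the cytosolic forms were called, lower, in ID3. HSP90B1 (GRP94, chromosome 12 of GRCh37 from 104323885 to 104347709) had CPM of 681, 678 and 672 in GFP, 759.6, 793 and 752 in ID1, 966, 987 and 959 in ID2, 834, 810.3 and 856 in ID3 and 762, 757 and 738 in ID4. No ID library overlapped GFP, and ID2 was above every other group. The log2 fold changes were 0.18 (SE 0.04, adjusted p = 0.00265), 0.52 (SE 0.04, adjusted p = 1.44e-09), 0.30 (SE 0.04, adjusted p = 9.69e-06) and 0.15 (SE 0.04, adjusted p = 0.0109) in ID1 to ID4. Relative to the median of chromosome 12 they were 0.01, 0.33, 0.15 and -0.04, and the part of the chromosome in these changes was not tested. The ID4 call was lost without ID4 replicate 1 (0.14, adjusted p = 0.0527). ID2 exceeded ID1 by 0.34 (SE 0.04, adjusted p = 4.87e-06), and it exceeded ID3 and ID4 too.

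HSP90AA1, the heat-inducible cytosolic HSP90, had CPM of 2604, 2892 and 2662 in GFP and 2196, 2321 and 2310 in ID3. Every ID3 library was below every library of the other groups, and ID1, ID2 and ID4 ran from 2376 to 2998. Its log2 fold change in ID3 was -0.26 (SE 0.05, adjusted p = 0.000909). HSP90AB1, the constitutive cytosolic form, had CPM of 3350, 3389 and 3428 in GFP and 2947, 3025 and 3090 in ID3 and 3291 to 3524 in the other ID groups, so the ID3 libraries again lay below all 12 others. Its log2 fold change in ID3 was -0.17 (SE 0.04, adjusted p = 0.00207). In ID1, ID2 and ID4 neither gene was called, with values of -0.06, 0.04 and -0.11 for HSP90AA1 and -0.02, 0.02 and 0.03 for HSP90AB1. ID3 minus ID2 was -0.30 (SE 0.05, adjusted p = 0.000525) for HSP90AA1 and -0.18 (SE 0.04, adjusted p = 0.00209) for HSP90AB1. The 3 HSP90 genes summed to 6786 ± 163 (SD, n = 3) in GFP, 6721 ± 85.8 in ID1, 7196 ± 196 in ID2, 6130 ± 141 in ID3 and 6742 ± 199 in ID4, in CPM.

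**Figure D3:**
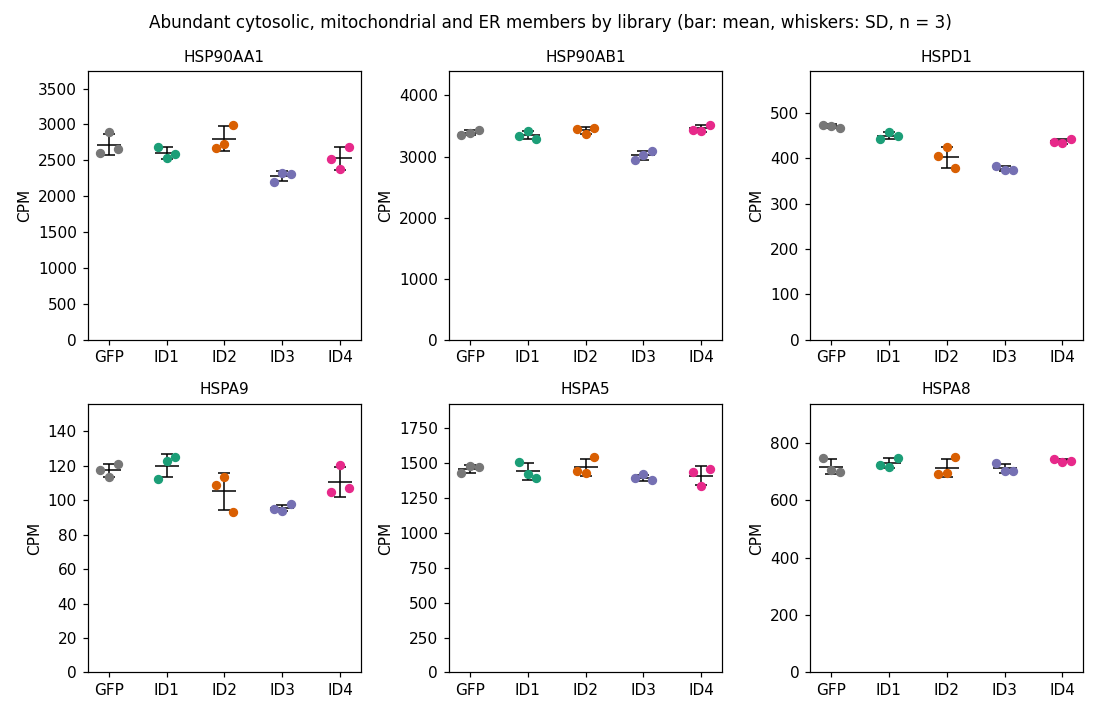
CPM in each library of HSP90AA1 and HSP90AB1 (cytosol), HSPD1 and HSPA9 (mitochondria), HSPA5 (ER) and HSPA8 (cytosol), with mean and SD of 3 libraries per group. The ID3 libraries are below the GFP libraries for both HSP90 genes, HSPD1, HSPA9 and HSPA5 (not called), while the HSPA8 groups overlap GFP.

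Of the 10 HSP70 genes, 7 were called in no comparison, beside 52.1% of all entries. Among the 7 were the constitutive cytosolic HSPA8, the ER protein HSPA5 and the heat-inducible pair HSPA1A and HSPA1B. HSPA8 stayed between 693 and 749.9 CPM in all 15 libraries, with log2 fold changes of 0.02, -0.01, -0.01 and 0.04. HSPA5 (BiP, the ER chaperone that restrains the unfolded protein sensors) stayed between 1333 and 1542 CPM, with log2 fold changes of -0.02, 0.01, -0.06 and -0.05 (SE 0.05). Its ID3 libraries, at 1391, 1419 and 1378, lay below those of GFP, at 1426, 1481 and 1471, without a call (adjusted p = 0.34). In ID2 HSPA5 was at 0.01 and HSP90B1 at 0.52, or 0.15 and 0.33 relative to their chromosome medians, and both windows hold the ER stress response element printed above. HSPA1A and HSPA1B are near-identical neighbouring copies, beside HSPA1L, and the counting may split their reads. HSPA1A had 3 to 15 counts and HSPA1B 178 to 354. Their sum was 18.2 ± 2.17 (SD, n = 3) in GFP, 19.4 ± 0.769 in ID1, 21.6 ± 4.46 in ID2, 19.2 ± 2.36 in ID3 and 18.7 ± 0.544 in ID4, in CPM. In ID2 HSPA1B passed the threshold without ID2 replicate 3 (0.37, adjusted p = 0.0241). HSPA1B in ID2 was called with low-count entries kept (adjusted p = 0.0479). Heat-inducible HSPA6 was below the count limit, with group means of at most 0.239 CPM.

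The 3 HSP70 genes that were called were lower, and 1 of them, HSPA9, is described with the mitochondrial genes. HSPA13, a microsomal HSP70, had CPM of 36.9, 35.1 and 38.3 in GFP, 25.8, 29.2 and 29.7 in ID1, 27.3, 32.8 and 26.9 in ID2 and 27.2, 29.1 and 29.2 in ID4. These ID libraries lay below GFP, while ID3, at 35.4, 32.9 and 30.5, overlapped it. The log2 fold changes were -0.38 (SE 0.09, adjusted p = 0.00264), -0.34 (SE 0.09, adjusted p = 0.00382) and -0.37 (SE 0.09, adjusted p = 0.00412) in ID1, ID2 and ID4, and -0.16 (SE 0.09, adjusted p = 0.192) in ID3. HSPA12A, a distant relative of HSP70, was lower in ID2. It had 25, 12 and 25 counts in GFP and 7, 8 and 10 in ID2, a log2 fold change of -1.44 (SE 0.36, adjusted p = 0.00296) or -1.26 relative to chromosome 10, and 12 to 24 counts in the other ID groups, which overlapped GFP. The HSP110 proteins are nucleotide exchange factors of cytosolic HSP70. Of these HSPH1 had CPM of 129, 141 and 138 in GFP, 164, 147 and 156 in ID1 and 125, 118 and 128 in ID2 and was higher in ID1 at 0.19 (SE 0.06, adjusted p = 0.0213). That call was lost without GFP replicate 1 (0.15, adjusted p = 0.106), ID1 replicate 1 (0.15, adjusted p = 0.117) or ID1 replicate 3 (0.19, adjusted p = 0.0571). In ID2 it was at -0.14 (SE 0.06, adjusted p = 0.0767), and passed without GFP replicate 1 (-0.18, adjusted p = 0.0411). ID2 minus ID1 was -0.33 (SE 0.06, adjusted p = 0.000367). HSPA4 and HSPA4L were not called against GFP.

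A fixed list of mitochondrial members held 7 genes and may leave others out. Of these 7 genes 0, 1, 0 and 0 were called higher in ID1 to ID4 (beside 11.8%, 17.5%, 14.5% and 11.4% of all entries). Lower calls were 0, 1, 3 and 0 (beside 9.81%, 16.3%, 13% and 9.18%), and the median log2 fold changes were -0.03, -0.10, -0.09 and -0.11. The 3 lower in ID3 were HSPD1, HSPA9 and DNAJC19. HSPD1 (HSP60, the mitochondrial chaperonin) had CPM of 475, 472 and 467 in GFP, 443, 458 and 449.6 in ID1, 404, 425 and 379 in ID2, 384, 375 and 373 in ID3 and 435, 434 and 443 in ID4. All 12 ID libraries were below all GFP libraries, and it was called in ID2 at -0.23 (SE 0.05, adjusted p = 0.000508) and in ID3 at -0.32 (SE 0.05, adjusted p = 1.63e-05). ID3 minus ID1 was -0.25 (SE 0.05, adjusted p = 0.00119), ID4 minus ID3 was 0.21 (SE 0.05, adjusted p = 0.00446) and ID3 minus ID2 was -0.09 (SE 0.05, adjusted p = 0.202). HSPE1 (HSP10, its lid) shares a bidirectional promoter with HSPD1. It had CPM of 90.5, 83.2 and 80.4 in GFP and 76.1, 78.6 and 84.4 in ID3, overlapped GFP in every group and was called in no comparison. An entry for the readthrough transcript HSPE1-MOB4 held a further 20.97 to 30.9 CPM in group means, so HSPE1 reads may be split.

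HSPA9 (mortalin, the mitochondrial HSP70) had CPM of 118, 114 and 121 in GFP, 109, 114 and 93.2 in ID2 and 94.98, 94.1 and 97.7 in ID3, and its log2 fold change in ID3 was -0.30 (SE 0.07, adjusted p = 0.00286). In ID2 it was at -0.16 (SE 0.07, adjusted p = 0.0883), and passed without ID2 replicate 2 (-0.22, adjusted p = 0.0321). DNAJC19, a part of the import motor that HSPA9 drives, had CPM of 58.3, 54.2 and 60.4 in GFP, 55.7, 51.9 and 44.7 in ID2 and 42.6, 42.8 and 53.01 in ID3 and was lower in ID3 at -0.32 (SE 0.09, adjusted p = 0.00721). That call was lost without ID3 replicate 1 (-0.27, adjusted p = 0.0502), and in ID2 DNAJC19 passed without ID2 replicate 1 (-0.25, adjusted p = 0.041). DNAJC15, a homologue of DNAJC19, was higher in ID2 instead. It had CPM of 23.96, 18.6 and 19.4 in GFP and 37.5, 34.2 and 26.4 in ID2, a log2 fold change of 0.66 (SE 0.12, adjusted p = 0.000243), and ID2 exceeded ID1, ID3 and ID4 too. DNAJA3 and DNAJC11 were called in none.

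The largest fold changes among the members were those of HSPB3 and HSPB2, small heat shock protein genes with few counts. HSPB1 (HSP27, which binds actin) had CPM of 199, 198 and 209.5 in GFP, 260.5, 278 and 283 in ID1, 333, 289 and 283 in ID2, 235, 210.4 and 231 in ID3 and 232, 244 and 222 in ID4. All ID libraries were above all GFP libraries, those of ID3 by less than 1 CPM at the nearest. The log2 fold changes were 0.44 (SE 0.06, adjusted p = 1.74e-05), 0.58 (SE 0.06, adjusted p = 1.82e-07), 0.16 (SE 0.06, adjusted p = 0.0688) and 0.20 (SE 0.06, adjusted p = 0.0244). ID3 minus ID2 was -0.42 (SE 0.06, adjusted p = 5.99e-05) and ID4 minus ID2 was -0.38 (SE 0.06, adjusted p = 0.000158), and ID1 exceeded both as well. The ID4 call was lost without GFP replicate 1 (0.19, adjusted p = 0.0706), GFP replicate 2 (0.19, adjusted p = 0.0857), ID4 replicate 1 (0.20, adjusted p = 0.0633) or ID4 replicate 2 (0.17, adjusted p = 0.114). In ID3 HSPB1 passed without ID3 replicate 2 (0.20, adjusted p = 0.0347). HSPB1 in ID3 was called with low-count entries kept (adjusted p = 0.0401). HSPB6 (HSP20) had CPM of 2.80, 3.18 and 3.31 in GFP, 3.47, 4.16 and 3.82 in ID1, 5.08, 4.61 and 5.09 in ID2, 4.89, 6.24 and 4.89 in ID3 and 4.63, 4.05 and 4.93 in ID4, above GFP in all libraries. It was called in ID2 at 0.67 (adjusted p = 0.0039), in ID3 at 0.79 (adjusted p = 0.00122) and in ID4 at 0.56 (adjusted p = 0.0271). The ID4 call was lost without GFP replicate 1 (0.49, adjusted p = 0.104), GFP replicate 2 (0.58, adjusted p = 0.0553), ID4 replicate 1 (0.55, adjusted p = 0.0734) or ID4 replicate 3 (0.50, adjusted p = 0.1). HSPB6 in ID4 was not called with low-count entries kept (adjusted p = 0.055) or by DESeq2 (adjusted p = 0.0677).

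HSPB3 and HSPB2, known from muscle, were scarce. HSPB3 (chromosome 5 of GRCh37 from 53751529 to 53752207) had 4, 5 and 4 counts in the GFP libraries, 37, 20 and 15 in ID1, 60, 54 and 65 in ID2, 14, 19 and 7 in ID3 and 18, 12 and 8 in ID4. Every ID library held more than every GFP library. The fitted log2 fold changes were 2.27 (SE 0.45, adjusted p = 0.000634), 3.60 (SE 0.39, adjusted p = 1.65e-07), 1.44 (SE 0.50, adjusted p = 0.0337) and 1.55 (SE 0.50, adjusted p = 0.0296). ID2 exceeded ID1 by 1.33 (SE 0.28, adjusted p = 0.0019). The ID3 call was lost without GFP replicate 1 (1.30, adjusted p = 0.111), GFP replicate 2 (1.59, adjusted p = 0.0572), GFP replicate 3 (1.43, adjusted p = 0.0796), ID3 replicate 1 (1.43, adjusted p = 0.0726) or ID3 replicate 2 (1.10, adjusted p = 0.169). The ID4 call was lost without GFP replicate 1 (1.41, adjusted p = 0.103), GFP replicate 2 (1.70, adjusted p = 0.0529), GFP replicate 3 (1.55, adjusted p = 0.0708), ID4 replicate 1 (1.25, adjusted p = 0.152) or ID4 replicate 2 (1.51, adjusted p = 0.0702). HSPB2 had 2, 0 and 2 counts in GFP, 4, 6 and 14 in ID2 and 10, 10 and 3 in ID3, where it was called (adjusted p = 0.0183 and 0.0281), and 3 to 6 in ID1 and ID4. The fitted size of so small a count depends on the prior count. Its mean over all libraries was 5.13 counts, and 4.42 without the ID2 libraries or 4.5 without those of ID3, below the limit of 5, so its calls in these groups had the filter's help and support nothing further. HSPB2 in ID3 was not called by DESeq2 (adjusted p = 0.0534). HSPB2 lost its call in ID2 without GFP replicate 2 (1.83, adjusted p = 0.0773) or ID2 replicate 3 (1.68, adjusted p = 0.137) and in ID3 without GFP replicate 1 (2.56, adjusted p = 0.0554), GFP replicate 2 (1.76, adjusted p = 0.109), ID3 replicate 1 (2.07, adjusted p = 0.0933) or ID3 replicate 2 (2.03, adjusted p = 0.0948).

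CRYAB (αB-crystallin, also HSPB5) is a small heat shock protein under another symbol and the head-to-head neighbour of HSPB2. It had 13, 15 and 24 counts in GFP and 72 to 179 in the ID libraries. Its log2 fold changes were 2.58 (SE 0.21, adjusted p = 2.49e-09), 3.11 (SE 0.20, adjusted p = 2.55e-11), 2.74 (SE 0.20, adjusted p = 6.5e-10) and 2.19 (SE 0.22, adjusted p = 1.11e-07). HSPB11, an intraflagellar transport protein despite its symbol and named after its values were seen, was lower in ID3 at -0.26 (SE 0.10, adjusted p = 0.0459). With 1 library left out, given by group and replicate number, HSPB11 lost its call in ID3 without GFP 1, GFP 2, ID3 1, ID3 2 or ID3 3 (adjusted p up to 0.292). HSPB11 in ID3 was not called with the replicate number as a block (adjusted p = 0.0554) or with only the groups compared (adjusted p = 0.0531). It was not called by limma (adjusted p = 0.065) or by DESeq2 (adjusted p = 0.0554) either. The 6 members of this family summed to 261 ± 16.3 (SD, n = 3) in GFP, 351 ± 27.6 in ID1, 366 ± 42.4 in ID2, 300.5 ± 30.1 in ID3 and 322 ± 40.97 in ID4, in CPM, most of it HSPB1. HSPB8, called in no comparison, also entered the differences. Its mean was 25.6 CPM in GFP, 43.6 in ID3 and 56.1 in ID4, beside 202, 225 and 233 for HSPB1.

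HSPB8 (HSP22, which works with BAG3 in selective autophagy) varied widely between libraries of 1 group. It had CPM of 26.97, 13.5 and 36.5 in GFP, 26.3, 61.6 and 45.1 in ID1, 37.9, 41.9 and 5.38 in ID2, 40.5, 25.9 and 64.5 in ID3 and 68.9, 77.6 and 21.8 in ID4. Every ID group overlapped GFP. The log2 fold changes were 0.78 (SE 0.49, adjusted p = 0.287), 0.14 (SE 0.50, adjusted p = 0.862), 0.76 (SE 0.49, adjusted p = 0.267) and 1.12 (SE 0.48, adjusted p = 0.11), or 0.61, -0.05, 0.61 and 0.93 relative to chromosome 12. Its mean of 526 counts would give a coefficient of variation (CV) of 4.36% from counting alone, while the pooled CV within groups was 51.9%. By that CV it ranked 10 of the 10580 entries with a mean of 50 or more counts. The ID4 value passed without ID4 replicate 3 (1.51, adjusted p = 0.0285), and the ID2 value changed sign without GFP replicate 2 (-0.15, adjusted p = 0.866), ID2 replicate 1 (-0.12, adjusted p = 0.902) or ID2 replicate 2 (-0.25, adjusted p = 0.78). HSPB8 was also called in ID1, ID3 and ID4 when only the groups compared were fitted (0.78, adjusted p = 0.0186 in ID1, 0.76, adjusted p = 0.0292 in ID3 and 1.12, adjusted p = 0.011 in ID4). It was called in the same 3 groups when entries with low counts were kept. In that fit edgeR's prior degrees of freedom were infinite (12 in the reported fit), so HSPB8's own spread did not enter its test. They were 17.4, 16.3 and 16 in ID1, ID3 and ID4 with only the groups compared. Those fits also held fewer libraries, so HSPB8's own spread weighed less there than in the reported fit.

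The libraries in which HSPB8 was low were low for other genes too. Group means were removed on the log2 scale (CPM + 0.5) over the 15 libraries. Of the 10580 entries with a mean of 50 or more counts, 209 had a Pearson r of 0.9 or more with HSPB8. The points share library and depth, and the correlation is a description. The 8 entries with the highest r, chosen after their values were seen, were XPOT (0.99, a tRNA exporter), KIAA1522 (0.99), RABGGTB (0.99, a Rab prenylation subunit), SBDSP1 (0.99), SBDS (0.99, a ribosome maturation factor whose near-identical pseudogene is SBDSP1, so that reads may be split), CERS2 (0.98), ADAMTS1 (0.98) and PAIP2 (0.98). XPOT had CPM of 33.1, 31.4 and 2.76 in ID2 and 41.3, 47.5 and 9.93 in ID4, low in the same libraries as HSPB8. Of 54 members with such means, HSPB8 included, DNAJB5 was the 1 other with r of 0.9 or more (0.95), beside 209 of 10580 entries. DNAJB5 had CPM of 32.1, 32.1 and 21.5 in ID2 and 27.6, 31.6 and 24.8 in ID4. BAG3 had r = 0.89 with HSPB8. The lowest HSPB8 library was replicate 2 in GFP and ID3, 1 in ID1 and 3 in ID2 and ID4, so no replicate number was low throughout.

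**Figure D4:**
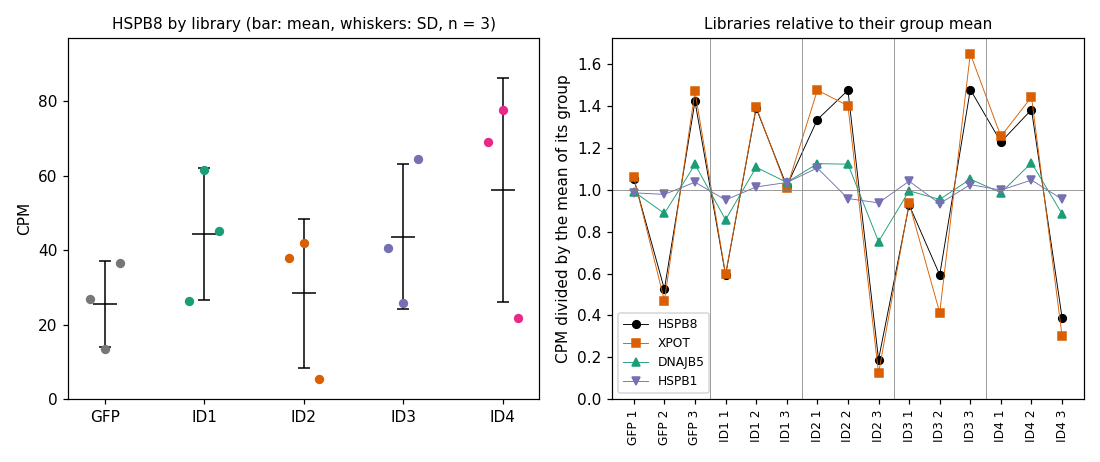
Left, HSPB8 in CPM by library with mean and SD of 3 libraries per group; right, CPM of HSPB8, XPOT, DNAJB5 and HSPB1 divided by the mean of their own group, in each of the 15 libraries. HSPB8 and XPOT are lowest in the same library of each group, DNAJB5 swings less, and HSPB1 stays near 1.

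Other members were steadier. The median pooled CV of the 54 members with a mean of 50 or more counts was 6.91%, beside 7.93% for all such entries, and the next after HSPB8 was HSPA4L at 19.4% (counting 13.5%). The 5 members after HSPB8 with the largest CV relative to counting were abundant genes. Their pooled CV was 5.05% (counting 0.536%) for HSP90AA1, 3.59% (counting 0.719%) for HSPA5, 6.78% (counting 1.60%) for DNAJC7, 5.77% (counting 1.40%) for DNAJB1 and 5.78% (counting 1.52%) for DNAJC8. HSP90AB1 had the lowest CV, 1.75%.

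**Figure D5:**
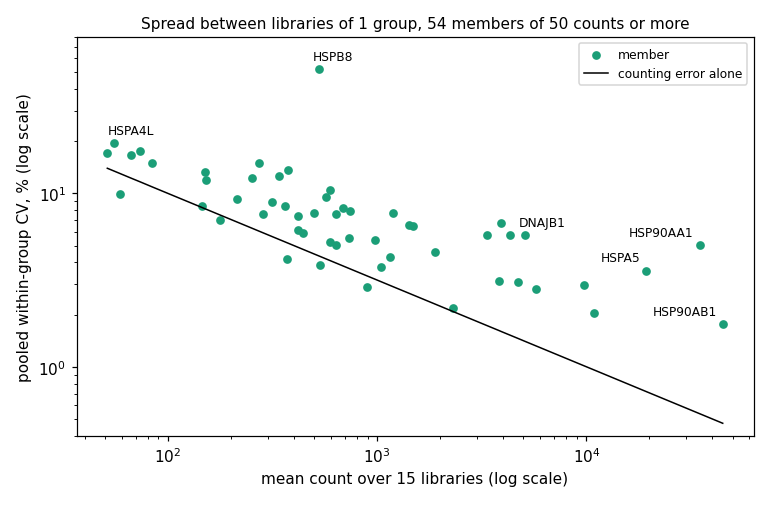
Pooled within-group CV of the 54 members with a mean of 50 counts or more (points, log scale) against mean count (log scale), with the CV expected from counting error alone as a line. HSPB8, at 51.9%, stands above all other members, and HSP90AB1 is lowest at 1.75%.

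DNAJ proteins deliver clients to HSP70 and start its ATP cycle. DNAJA1, a cytosolic partner of HSPA8, had CPM of 79.4, 81.97 and 84.3 in GFP, 91.5, 86.7 and 89.2 in ID1, 63.9, 67.1 and 63.8 in ID2, 74.4, 69.2 and 72.9 in ID3 and 72.8, 79.3 and 81.3 in ID4. ID2 and ID3 lay below GFP and ID1 above it. Its log2 fold changes were 0.12 (SE 0.06, adjusted p = 0.146), -0.33 (SE 0.06, adjusted p = 0.000121), -0.18 (SE 0.06, adjusted p = 0.0245) and -0.07 (SE 0.06, adjusted p = 0.434). Relative to the median of chromosome 9 the ID2 value was -0.20. The ID3 call was lost without GFP replicate 2 (-0.18, adjusted p = 0.0603), GFP replicate 3 (-0.16, adjusted p = 0.0905) or ID3 replicate 2 (-0.15, adjusted p = 0.108). DNAJA1 in ID3 was not called with low-count entries kept (adjusted p = 0.078). ID2 minus ID1 was -0.46 (SE 0.06, adjusted p = 8.47e-06). DNAJA2, a close relative, had CPM of 56.8, 58.5 and 62.6 in GFP and 53.5, 50.2 and 43.6 in ID2 and was lower in ID2 at -0.27 (SE 0.08, adjusted p = 0.014), but not without GFP replicate 3 (-0.23, adjusted p = 0.0671) or ID2 replicate 3 (-0.19, adjusted p = 0.0722).

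Among the DNAJB genes, DNAJB6, a suppressor of protein aggregation, was higher in all 4 comparisons. It lies on chromosome 7 of GRCh37 from 157128075 to 157210133 and had CPM of 261, 272 and 281 in GFP, 364, 376 and 377 in ID1, 393, 398 and 392 in ID2, 315, 319 and 345 in ID3 and 371, 386 and 377 in ID4. No ID library overlapped GFP, and the ID3 libraries lay between GFP and the other 3 groups. On the log2 scale it was 0.46 (SE 0.05, adjusted p = 2.24e-07), 0.54 (SE 0.05, adjusted p = 8.22e-09), 0.27 (SE 0.05, adjusted p = 0.000212) and 0.48 (SE 0.05, adjusted p = 1.37e-07) from GFP. ID3 minus ID2 was -0.27 (SE 0.05, adjusted p = 0.0004). DNAJB1, a heat-inducible partner of HSP70, was called in no comparison. It had 371, 417 and 429.5 CPM in GFP and 329 to 392 in the ID libraries, and its log2 fold changes were -0.12, -0.11, -0.15 and -0.14 (SE 0.06). It passed, lower, without GFP replicate 1 (-0.18, adjusted p = 0.046) in ID1, GFP replicate 1 (-0.17, adjusted p = 0.0398) in ID2, GFP replicate 1 (-0.21, adjusted p = 0.0181) or ID3 replicate 3 (-0.20, adjusted p = 0.0299) in ID3 and GFP replicate 1 (-0.20, adjusted p = 0.0332) in ID4. DNAJB1 in ID3 was called with the replicate number as a block (adjusted p = 0.0411). DNAJB4 had CPM of 4.69, 4.68 and 4.33 in GFP, 8.17, 7.42 and 5.37 in ID1 and 8.46, 8.53 and 6.23 in ID2 and was higher in ID1 at 0.62 (adjusted p = 0.0169) and in ID2 at 0.76 (adjusted p = 0.00206). The ID1 call was lost without GFP replicate 3 (0.58, adjusted p = 0.0577), ID1 replicate 1 (0.48, adjusted p = 0.105) or ID1 replicate 2 (0.57, adjusted p = 0.0601).

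A fixed list of ER members held 8 genes and may leave others out, and DNAJC14, described below, was not on it. Of these 8 genes 2, 4, 3 and 2 were called higher in ID1 to ID4 (beside 11.8%, 17.5%, 14.5% and 11.4% of all entries). Lower calls were 1, 1, 0 and 1 (beside 9.81%, 16.3%, 13% and 9.18%), each of them HSPA13. The median log2 fold changes were 0.09, 0.20, 0.17 and 0.07. DNAJB9 (ERdj4, which holds HSPA5 on the sensor IRE1) had CPM of 10.3, 8.11 and 8.90 in GFP, 11.8, 12.1 and 11.5 in ID1 and 12.97, 13.3 and 16.5 in ID3 and was higher in ID3 at 0.64 (SE 0.13, adjusted p = 0.00101). ID4 minus ID3 was -0.53 (SE 0.13, adjusted p = 0.0123). In ID1 it was at 0.37 (SE 0.14, adjusted p = 0.06), and passed without GFP replicate 1 (0.47, adjusted p = 0.0399). DNAJB9 in ID1 was called with low-count entries kept (adjusted p = 0.0481), with only the groups compared (adjusted p = 0.037) and by limma (adjusted p = 0.0487). DNAJC3 (P58IPK, an ER co-chaperone that restrains the kinase PERK) had CPM of 41.7, 37.5 and 39.9 in GFP, 45.97, 48.6 and 46.3 in ID1, 53.99, 48.7 and 46.98 in ID2, 52.4, 53.1 and 48.5 in ID3 and 46.1, 49.2 and 46.7 in ID4. Every ID library was above every GFP library, by 0.24 (SE 0.07, adjusted p = 0.0159), 0.33 (SE 0.07, adjusted p = 0.000844), 0.37 (SE 0.07, adjusted p = 0.000364) and 0.25 (SE 0.07, adjusted p = 0.0131) on the log2 scale. The ID1 call was lost without GFP replicate 2 (0.20, adjusted p = 0.0835) or ID1 replicate 2 (0.22, adjusted p = 0.0704), and the ID4 call without GFP replicate 2 (0.21, adjusted p = 0.0716) or ID4 replicate 2 (0.22, adjusted p = 0.061). The antisense entry DNAJC3-AS1 had 2.85 to 4.25 CPM in group means, and whether the counting used strand is not given in the sources used here. DNAJC10 (the ER reductase ERdj5) at 0.30 (SE 0.07, adjusted p = 0.001) and DNAJB11 (ERdj3) at 0.15 (SE 0.05, adjusted p = 0.0163) were higher in ID2, and are named after their values were seen. DNAJB11 in ID2 was not called with low-count entries kept (adjusted p = 0.0526) or with only the groups compared (adjusted p = 0.086).

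DNAJC9, which also acts as a histone chaperone, was lower in all 4 comparisons. It had CPM of 104, 117 and 115 in GFP, 81.5, 89.4 and 91.4 in ID1, 77.5, 79.6 and 65.2 in ID2, 79.03, 83.98 and 87.9 in ID3 and 93.2, 93.1 and 79.7 in ID4, and no ID library reached the lowest GFP library. Its log2 fold changes were -0.35 (SE 0.08, adjusted p = 0.002), -0.59 (SE 0.08, adjusted p = 3.62e-06), -0.42 (SE 0.08, adjusted p = 0.000333) and -0.34 (SE 0.08, adjusted p = 0.00355), and relative to the median of chromosome 10 they were -0.21, -0.41, -0.33 and -0.23. DNAJC14, which helps export receptors from the ER, had CPM of 25.4, 29.02 and 28.1 in GFP, 34.5, 36.8 and 37.8 in ID2, 37, 36.1 and 30.99 in ID3 and 34.1, 34.7 and 33.4 in ID4. It was higher in ID2 at 0.40 (adjusted p = 0.000439), in ID3 at 0.34 (adjusted p = 0.00313) and in ID4 at 0.31 (adjusted p = 0.00901), or 0.21, 0.19 and 0.11 relative to chromosome 12. The ID4 call was lost without GFP replicate 1 (0.25, adjusted p = 0.0574).

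DNAJC22 and DNAJC13 were lower and DNAJC12 higher in 1 or 2 comparisons each. DNAJC22 had CPM of 24.4, 24.01 and 28.8 in GFP, 18.5, 24.2 and 13.9 in ID2 and 15.1, 16.9 and 18.4 in ID3. ID3 lay below GFP at -0.62 (SE 0.14, adjusted p = 0.00217), while ID2 overlapped it and was called at -0.44 (SE 0.14, adjusted p = 0.0174), but not without GFP replicate 3 (-0.35, adjusted p = 0.0924) or ID2 replicate 3 (-0.26, adjusted p = 0.0996). DNAJC22 in ID2 was not called with only the groups compared (adjusted p = 0.0538). DNAJC22 in ID1 was called with low-count entries kept (adjusted p = 0.0388) and with only the groups compared (adjusted p = 0.0357). DNAJC22 in ID4 was called with low-count entries kept (adjusted p = 0.00536), with only the groups compared (adjusted p = 0.00807) and by DESeq2 (adjusted p = 0.0485). Relative to chromosome 12 the values were -0.47, -0.63, -0.76 and -0.57 in ID1 to ID4. DNAJC13, an endosomal protein, had CPM of 39.3, 42.5 and 40.4 in GFP, 30.3, 38.4 and 36.1 in ID2 and 31.5, 32.5 and 36.6 in ID4 and was lower in ID4 at -0.28 (SE 0.09, adjusted p = 0.0275). That call was lost without GFP replicate 2 (-0.25, adjusted p = 0.102), GFP replicate 3 (-0.28, adjusted p = 0.0554), ID4 replicate 1 (-0.23, adjusted p = 0.123) or ID4 replicate 2 (-0.26, adjusted p = 0.0911). In ID2, at -0.22 (SE 0.09, adjusted p = 0.0561), DNAJC13 passed without ID2 replicate 2 (-0.29, adjusted p = 0.0203) or ID2 replicate 3 (-0.24, adjusted p = 0.0491). DNAJC12, a co-chaperone of aromatic amino acid hydroxylases, had CPM of 2.52, 3.10 and 2.80 in GFP, 3.20, 4.75 and 4.85 in ID1 and 4.86, 5.04 and 3.87 in ID4 and was higher in ID1 at 0.60 (adjusted p = 0.0491) and in ID4 at 0.71 (adjusted p = 0.0219), or 0.75 and 0.81 relative to chromosome 10. DNAJC12 in ID1 was not called with the replicate number as a block (adjusted p = 0.0509), by limma (adjusted p = 0.0515) or by DESeq2 (adjusted p = 0.0729). The ID1 call was lost without GFP replicate 1 (0.53, adjusted p = 0.16), GFP replicate 2 (0.68, adjusted p = 0.0651), GFP replicate 3 (0.60, adjusted p = 0.102), ID1 replicate 2 (0.52, adjusted p = 0.162) or ID1 replicate 3 (0.50, adjusted p = 0.174). The ID4 call was lost without GFP replicate 1 (0.63, adjusted p = 0.0875), GFP replicate 3 (0.71, adjusted p = 0.0538), ID4 replicate 1 (0.66, adjusted p = 0.0775) or ID4 replicate 2 (0.64, adjusted p = 0.0801). The other called members, named after their values were seen, were DNAJC2 in ID3 at -0.28 (adjusted p = 0.0499), DNAJC4 in ID2 at 0.53 (adjusted p = 0.039), DNAJC5 in ID2 at -0.19 (adjusted p = 0.00426) and in ID3 at -0.15 (adjusted p = 0.0226), DNAJC25 in ID1 at 0.28 (adjusted p = 0.0103) and DNAJB14 in ID3 at 0.22 (adjusted p = 0.0253). DNAJC2 lost its call in ID3 without GFP 2, GFP 3, ID3 1 or ID3 2 (adjusted p up to 0.289). DNAJC4 lost its call in ID2 without GFP 1, GFP 2, GFP 3, ID2 1 or ID2 3 (adjusted p up to 0.239). DNAJC5 lost its call in ID3 without GFP 2, GFP 3 or ID3 1 (adjusted p up to 0.118). DNAJC25 lost its call in ID1 without ID1 2 (adjusted p = 0.0503). DNAJB14 lost its call in ID3 without GFP 1, ID3 2 or ID3 3 (adjusted p up to 0.143). DNAJC2 in ID3 was not called in the upper 50% of entries (adjusted p = 0.0543) or by limma (adjusted p = 0.0556). DNAJC4 in ID2 was not called with only the groups compared (adjusted p = 0.07) or by DESeq2 (adjusted p = 0.0533). DNAJC5 in ID3 was not called with low-count entries kept (adjusted p = 0.0669) or with only the groups compared (adjusted p = 0.0574). The readthrough entry DNAJC25-GNG10 held 774 to 1079 counts, so DNAJC25 reads may be split. From GFP to ID1 the mean of the readthrough entry went from 71.4 to 66.1 CPM (not called). That of DNAJC25 went the other way, from 25.4 to 30.8, and the sum of both entries was not tested. Of the 26 DNAJC genes 13 were called in none of the 4 comparisons, beside 52.1% of all entries. These 13 include DNAJC6, DNAJC16, DNAJC17, DNAJC18, DNAJC21, DNAJC27, DNAJC28 and DNAJC30. DNAJB2, DNAJB12 and HSPA2 were not called either.

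The 4 ID groups also differed from each other. An F-test over ID1 to ID4 called 20 of the 62 members (32.3%, beside 27.9% of all entries). HSP90AA1, HSP90AB1, HSPD1 and HSPA9 were lower in ID3 than in ID1, and HSP90B1, HSPB1 and DNAJB6 were higher in ID2 than in ID3, each by its own test. All 62 members together summed to 13040 ± 269.6 (SD, n = 3) in GFP, 13160 ± 91.1 in ID1, 13440 ± 204 in ID2, 12180 ± 219.9 in ID3 and 13080 ± 213 in ID4, in CPM. The members took 1.22% to 1.25% of the counts of an ID3 library and 1.28% to 1.34% of any other. Most of the lower ID3 sum was HSP90AA1 (mean CPM 2719 in GFP and 2276 in ID3) and HSP90AB1 (3389 and 3021). The median log2 fold change of the members in ID3 was 0.05, with 9 called higher and 11 lower.

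Regulators and partners of these chaperones were tested too. HSBP1, which binds and restrains HSF1, was lower in all 4 comparisons, with 424 to 447 CPM in GFP and 343 to 368 in the ID libraries (-0.31, -0.29, -0.25 and -0.27 on the log2 scale). HSF1 was lower in ID2 at -0.31 (adjusted p = 0.000977) and in ID4 at -0.23 (adjusted p = 0.0194), or -0.18 and -0.13 relative to chromosome 8. HSF4 was higher in ID3 at 0.73 (adjusted p = 0.00416) and in ID4 at 0.62 (adjusted p = 0.0197), and HSF2 was called in none. HSF1 lost its call in ID4 without GFP 1, ID4 1 or ID4 3 (adjusted p up to 0.0833). HSF4 lost its call in ID4 without GFP 1, GFP 2 or ID4 2 (adjusted p up to 0.102). A list of heat-inducible genes had 12 tested members, but it also holds HSPA8 and HSP90AB1, described above as constitutive. From this mixed list 2, 1, 0 and 1 were called higher in ID1 to ID4 (beside 11.8%, 17.5%, 14.5% and 11.4% of all entries). Lower calls were 0, 2, 4 and 0 (beside 9.81%, 16.3%, 13% and 9.18%), and the median log2 fold changes were 0.06, -0.01, -0.10 and 0.04. The 4 lower in ID3 were HSP90AA1, HSP90AB1, HSPD1 and DNAJA1.

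Of 12 HSP70 cochaperones 1, 3, 2 and 1 were higher and 0, 2, 2 and 2 lower in ID1 to ID4 (beside 11.8%, 17.5%, 14.5% and 11.4% and 9.81%, 16.3%, 13% and 9.18% of all entries), with median log2 fold changes of -0.05, -0.10, -0.02 and -0.04. BAG2, an inhibitor of the ubiquitin ligase STUB1, was higher in all 4 (0.45, 0.76, 0.41 and 0.57). In ID2, ID3 and ID4 the mitochondrial nucleotide exchange factors GRPEL1 (-0.38, -0.19 and -0.24, or -0.24, -0.23 and -0.13 relative to chromosome 4) and GRPEL2 (-0.51, -0.44 and -0.46) were lower. SIL1, the exchange factor of HSPA5, was higher in ID2 (0.35) and ID3 (0.32). BAG2 lost its call in ID1 without GFP 2, GFP 3, ID1 1, ID1 2 or ID1 3 (adjusted p up to 0.153), in ID3 without GFP 2, GFP 3, ID3 1 or ID3 2 (adjusted p up to 0.189) and in ID4 without GFP 2 or ID4 1 (adjusted p up to 0.0632). GRPEL1 lost its call in ID3 without GFP 1, GFP 3 or ID3 2 (adjusted p up to 0.153) and in ID4 without GFP 3, ID4 2 or ID4 3 (adjusted p up to 0.0617). GRPEL2 lost its call in ID3 without ID3 1 or ID3 2 (adjusted p up to 0.0849) and in ID4 without GFP 1 or ID4 1 (adjusted p up to 0.146). SIL1 lost its call in ID3 without GFP 2 or ID3 1 (adjusted p up to 0.0643). BAG2 in ID3 was not called with only the groups compared (adjusted p = 0.053) or by DESeq2 (adjusted p = 0.0592). GRPEL1 in ID3 was not called with low-count entries kept (adjusted p = 0.0596). Of 13 HSP90 cochaperones 3, 1, 1 and 3 were higher and 0, 3, 2 and 0 lower in ID1 to ID4 (beside 11.8%, 17.5%, 14.5% and 11.4% and 9.81%, 16.3%, 13% and 9.18% of all entries), with median log2 fold changes of 0.00, -0.02, -0.05 and 0.08. UNC45A, the myosin chaperone, was higher in ID1, ID3 and ID4 (0.28, 0.27 and 0.32), but -0.06, -0.05 and -0.05 relative to chromosome 15. CDC37L1 was higher in ID1, ID2 and ID4 (0.29, 0.30 and 0.35, or 0.44 in ID2 relative to chromosome 9), and FKBP4 in ID1 and ID4 (0.32 and 0.27, or 0.15 and 0.08 relative to chromosome 12). STIP1, which links HSP70 to HSP90, was lower in ID2 at -0.38 (adjusted p = 2.9e-05). UNC45A lost its call in ID1 without GFP 2 (adjusted p = 0.0655) and in ID3 without GFP 2 or ID3 2 (adjusted p up to 0.0931). CDC37L1 lost its call in ID1 without GFP 1, GFP 2, ID1 1, ID1 2 or ID1 3 (adjusted p up to 0.249), in ID2 without GFP 1, GFP 2, ID2 1 or ID2 2 (adjusted p up to 0.173) and in ID4 without GFP 1, GFP 2 or ID4 3 (adjusted p up to 0.119). FKBP4 lost its call in ID4 without GFP 1, GFP 2, ID4 1 or ID4 2 (adjusted p up to 0.0639). CDC37L1 in ID1 was not called by DESeq2 (adjusted p = 0.0523). CDC37L1 in ID2 was not called with only the groups compared (adjusted p = 0.0864).

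Of the 8 subunits of the cytosolic chaperonin CCT 1, 0, 0 and 1 were higher and 1, 3, 4 and 0 lower in ID1 to ID4 (beside 11.8%, 17.5%, 14.5% and 11.4% and 9.81%, 16.3%, 13% and 9.18% of all entries), with median log2 fold changes of -0.01, -0.09, -0.13 and -0.01. CCT3 was lower in ID1, ID2 and ID3 (-0.18, -0.28 and -0.35), and CCT7 (-0.13 and -0.14) and CCT8 (-0.34 and -0.16) in ID2 and ID3. CCT2 was higher in ID1 and ID4 (0.25 and 0.28, or 0.08 and 0.08 relative to chromosome 12). CCT3 lost its call in ID1 without GFP 2, GFP 3, ID1 1 or ID1 3 (adjusted p up to 0.106). CCT7 lost its call in ID2 without GFP 1, ID2 1, ID2 2 or ID2 3 (adjusted p up to 0.162) and in ID3 without GFP 1 or ID3 3 (adjusted p up to 0.109). CCT8 lost its call in ID3 without GFP 1, GFP 2, ID3 1 or ID3 3 (adjusted p up to 0.175). CCT7 in ID2 was not called with low-count entries kept (adjusted p = 0.117) or with only the groups compared (adjusted p = 0.131). CCT7 in ID3 was not called with low-count entries kept (adjusted p = 0.0756) or with only the groups compared (adjusted p = 0.0639). CCT8 in ID3 was not called with low-count entries kept (adjusted p = 0.0577), with the replicate number as a block (adjusted p = 0.0505) or with only the groups compared (adjusted p = 0.0544).

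Of 9 ER folding factors 3, 7, 4 and 2 were higher and 1, 1, 0 and 0 lower in ID1 to ID4 (beside 11.8%, 17.5%, 14.5% and 11.4% and 9.81%, 16.3%, 13% and 9.18% of all entries), with median log2 fold changes of 0.09, 0.29, 0.18 and 0.09. The disulfide isomerases PDIA4 (0.23, 0.59, 0.23 and 0.28) and PDIA3 (0.33, 0.46, 0.39 and 0.31, or -0.01, 0.21, 0.07 and -0.06 relative to chromosome 15) were higher in all 4, MANF in ID1, ID2 and ID3 (0.24, 0.28 and 0.27) and CALR in ID2 and ID3 (0.35 and 0.19). HERPUD1, a factor of ER-associated degradation named after its values were seen, was the 1 called lower, in ID1 (-0.30) and ID2 (-0.30). PDIA4 lost its call in ID1 without GFP 2 (adjusted p = 0.0856) and in ID3 without GFP 2 (adjusted p = 0.0678). PDIA3 lost its call in ID1 without GFP 1 or ID1 1 (adjusted p up to 0.157), in ID3 without GFP 1 (adjusted p = 0.0501) and in ID4 without GFP 1, ID4 1, ID4 2 or ID4 3 (adjusted p up to 0.197). MANF lost its call in ID1 without GFP 2, GFP 3, ID1 1 or ID1 3 (adjusted p up to 0.142), in ID2 without GFP 2 or ID2 1 (adjusted p up to 0.0545) and in ID3 without GFP 2 or ID3 1 (adjusted p up to 0.0703). Of 7 chaperones of these families under other symbols, CRYAB was higher in all 4 comparisons. HSCB, the mitochondrial iron-sulfur co-chaperone, was lower in ID2, ID3 and ID4 (-0.37, -0.47 and -0.34), and HYOU1, the ER HSP110, was higher in ID2 (0.37). HSCB lost its call in ID2 without GFP 2 or ID2 3 (adjusted p up to 0.0659) and in ID4 without GFP 1, GFP 2, ID4 1 or ID4 3 (adjusted p up to 0.121). TRAP1, SEC63 and GAK were called in none.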

How the data were processed

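RNA-seq of 15 U87MG libraries (5 groups of 3) was analysed. Libraries came from a QuantSeq 3′ kit, and eBiogen mapped them to hg19 (GRCh37). The submitters' processing notes name BWA and Bowtie2, and the counting tool and annotation are not given in the sources used here. The authors deposited raw counts per gene symbol and, in a second set of 15 columns, log2 values that they normalized between libraries. Counts were the main data and the deposited log2 values served an alternative. Total counts were 11089044 to 15148979 per library.

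Counts were scaled by TMM (factors 0.978 to 1.02) and fitted with edgeR 4.0.16 (R 4.3.3), with 1 mean per group over 15 libraries (common dispersion 0.00463), on the 13665 entries with a mean of 5 or more counts. Quasi-likelihood tests were adjusted by the Benjamini-Hochberg method, threshold 0.05. SE is the absolute log2 fold change divided by the square root of F. CPM is the count over the scaled library total. The members and lists were chosen with earlier results of these data known. Members are named if on a list of 17 core genes, among the 5 highest or lowest called without overlap in a comparison, or called with a log2 fold change of 0.5 or more in all 4. From other lists up to 4 genes are named, by the number of comparisons called and then by size. A gene of these lists is not reported here. Scripts were tested on simulated data. Alternatives were other filters, RLE factors, DESeq2 1.42.0, limma 3.58.1 on the log2 values, the groups compared alone, a 2-fold limit, a replicate block, and leaving out each replicate. Added after seeing the data were values relative to the chromosome median and the ID2 count without members of 30% CV or more. Positions came from GENCODE on GRCh37 (61 of 62 members).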

Additional observations from a re-analysis of the deposited data

Results flagged for a closer look

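Differences between ID groups are listed here where the F-test over the 4 groups and the contrast of 2 of them both passed the threshold. The contrasts, all log2 differences, had adjusted p from 1.11e-06 to 0.0475 by edgeR's quasi-likelihood test. DNAJB14, DNAJC2, DNAJC5, DNAJC10, DNAJC21 and HSPA4 are named after their values were seen.

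ID2 minus ID1 was -1.33 for HSPA12A, 0.34 for HSP90B1, -0.33 for HSPH1, 0.50 for DNAJC15, 0.24 for DNAJC10, -0.16 for HSPD1, -0.17 for DNAJC5, -0.21 for DNAJB14, 1.33 for HSPB3 and -0.46 for DNAJA1. ID3 minus ID1 was -0.19 for HSP90AA1, -0.25 for HSPD1, -0.21 for HSPA4, -0.33 for HSPA9, -0.15 for HSP90AB1, -0.28 for HSPB1, -0.38 for DNAJC2, -0.19 for DNAJB6 and -0.31 for DNAJA1. ID4 minus ID1 was -0.23 for HSPB1. Every member that passed in ID3 minus ID1 was lower in ID3, but the share of all entries lower in that contrast was not counted.

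ID3 minus ID2 was -0.22 for HSP90B1, -0.43 for DNAJC15, -0.30 for HSP90AA1, 0.31 for DNAJB14, -2.16 for HSPB3, -0.18 for HSPA4, -0.18 for HSP90AB1, -0.42 for HSPB1, -0.32 for DNAJC2, 0.39 for DNAJB9 and -0.27 for DNAJB6. ID4 minus ID2 was -0.37 for HSP90B1, 0.27 for HSPH1, -0.41 for DNAJC15, 0.30 for DNAJA2, -0.27 for DNAJC10, 0.14 for DNAJC5, 0.28 for DNAJC21, -2.05 for HSPB3, -0.38 for HSPB1 and 0.26 for DNAJA1. ID4 minus ID3 was -0.15 for HSP90B1, 0.21 for HSPD1, 0.25 for DNAJC21, 0.19 for HSPA4, 0.20 for HSP90AB1, 0.51 for DNAJC2, -0.53 for DNAJB9 and 0.21 for DNAJB6.

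DNAJC2, a ribosome-associated co-chaperone, had CPM of 38.5, 49.7 and 41.9 in GFP, 32.3, 35.96 and 38.8 in ID3 and 44.2, 51.5 and 57.1 in ID4. The ID3 and ID4 libraries did not overlap, and both overlapped GFP. Against GFP, ID3 was at -0.28 (SE 0.10, adjusted p = 0.0499) and ID4 at 0.24 (SE 0.10, adjusted p = 0.112).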

How the results depend on the processing

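With other filters, RLE factors, DESeq2, limma or the groups compared alone, counts of called members stayed within 1.5 times of the reported ones. With a change over 2-fold required they were 1, 3, 2 and 1 in ID1 to ID4 and 2 among the ID groups, without a share of all entries to set beside them. With a replicate left out they were 7 to 11 in ID1 and 6 to 11 in ID4. The ID1 count was 7 without ID1 replicate 2, and the ID4 count was 7 without GFP replicate 1 or 2 and 6 without ID4 replicate 1 or 2. With the replicate number as a block counts were 10, 22, 20, 11 and 20. Residuals of same-numbered libraries correlated at -0.19 to 0.18 over 30 pairs, so the numbers did not pair libraries. In ID3 the split of 9 higher and 11 lower became 11 and 9 without a filter, where prior degrees of freedom were infinite, and 10 and 9 by limma or with the groups compared alone. Without members of 30% CV or more the ID2 count was 18.

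Members and partner genes named here gave 2570 values under alternatives. Of these 2320 kept their sign and call, 195 lost the call (163 with a replicate left out), 31 gained it and 24 changed sign. None of these sign changes was of a called value. Of 136 values relative to the chromosome median, which have no test, 1 called value changed sign, HSP90B1 in ID4 (-0.040), and 6 uncalled ones did. Uncalled values whose sign changed with a replicate left out ranged over the replicates from -0.0069 to 0.20 for HSPA1A in ID3, -0.027 to 0.17 for HSPA1B in ID3, -0.025 to 0.14 for HSPA1B in ID4, -0.051 to 0.0097 for HSPA5 in ID1, -0.024 to 0.032 for HSPA5 in ID2, -0.046 to 0.021 for HSPA8 in ID2, -0.031 to 0.018 for HSPA8 in ID3, -0.25 to 0.64 for HSPB8 in ID2, -0.047 to 0.040 for HSPE1 in ID2, -0.0079 to 0.059 for HSPH1 in ID3, -0.0099 to 0.088 for HSP90AA1 in ID2, -0.35 to 0.11 for HSPA12A in ID1 and -0.036 to 0.064 for DNAJA2 in ID4. By limma HSPB8 in ID2 was at -0.21. The cause was not tested. Few counts limited HSPB2, HSPB3, HSPA1A and HSPA12A.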
